A study of Mus musculus with 6 samples.

Results

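Neat1 and Malat1 are long noncoding RNAs of nuclear bodies, and Sfpq, Nono and Pspc1 encode the proteins that assemble with Neat1 into paraspeckles. These 5 genes were taken by symbol from a table of 48897 genes, all 5 passed the filter on low counts, and 18563 genes passed in all. The genes were selected on their measured levels and changes in these same libraries, so both are given as a description with no test. All values are RNA levels, and protein was not measured. Where a protein is said below to rise, fall or be low, its RNA is meant.

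The libraries came from mouse embryonic fibroblasts (MEF), primary connective tissue cells grown out of embryos, of strain C57BL/6 at passages 5 to 7. Control cells received phosphate-buffered saline (PBS). TC cells received TNF-α, an inflammatory cytokine, with cycloheximide, which blocks translation. TCZ cells received both agents and also z-VAD-fmk, a broad caspase inhibitor. Each group had 2 libraries, and the series title ties the treatments to apoptosis and necroptosis. No group received TNF-α without cycloheximide, so the parts of these agents cannot be told apart, and no dose or time is given in the sources used here. The labels do not say whether libraries of one group are separate cultures, and every p-value therefore measures a spread that may be technical.

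Paraspeckles are nuclear bodies built on the long form of Neat1. The short form of the same gene ends at an ordinary polyadenylation signal and does not build them by itself. Sfpq, Nono and Pspc1 form the DBHS family (Drosophila behaviour, human splicing), RNA-binding proteins that pair with one another; Sfpq and Nono are needed to keep the long form, and Pspc1 is a marker of the body. Malat1, transcribed next to Neat1, gathers in nuclear speckles, the stores of splicing factors that lie beside paraspeckles. Paraspeckles are known to hold back certain RNAs and proteins in the nucleus, and Neat1 is known to respond to p53, hypoxia, heat shock and viral RNA.

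How these RNAs end bears on what a poly(A)-selected library holds, so the ends of 3 annotated transcripts are shown from GENCODE M21 (GRCm38), 5′ to 3′ along the RNA. The annotated short Neat1 transcript (3004 bases, 2 exons) ends at chr19:5842307-5842366, minus strand, with the polyadenylation signal in capitals. The annotated long one (20771 bases, 1 exon) ends at chr19:5824708-5824797, minus strand, and the Malat1 window lies at chr19:5795982-5796071, minus strand, 292 bases before the annotated end of that RNA. In these latter windows, capitals mark the T-rich and A-rich tracts of the kind known to fold into a triple helix that closes the end in place of a poly(A) tail.
Neat1 short: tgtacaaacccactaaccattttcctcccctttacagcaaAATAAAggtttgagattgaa
Neat1 long: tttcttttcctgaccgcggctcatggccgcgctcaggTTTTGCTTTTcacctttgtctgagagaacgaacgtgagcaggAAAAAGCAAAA
Malat1: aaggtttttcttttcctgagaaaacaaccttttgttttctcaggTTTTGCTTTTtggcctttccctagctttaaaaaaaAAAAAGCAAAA
The T-rich tract TTTTGCTTTT and the A-rich tract AAAAAGCAAAA each occurred 1 time in the long Neat1 transcript and 1 time in Malat1, and 0 times in the short Neat1 transcript. Gene counts add all forms of a gene, so the short and long forms of Neat1 were not separated here.

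Total counts ran from 24922627 to 52909926 per library. Control 2 and TCZ 2 had the smallest totals and also stood apart in the summed level of 12 RNAs that carry no poly(A) tail. Their summed level was 275 and 157 CPM in control (counts per 1000000, scaled by edgeR's trimmed mean of M values, TMM), 310 and 332 CPM in TC, and 324 and 3.10 CPM in TCZ. Outside TCZ 2 the sum was mostly Rn7s1 and Rn7s2, RNAs of the signal recognition particle. Their counts were 5789 and 9484 in TCZ 1, and 4 and 1 in TCZ 2. Rnu1a1 (231 in TCZ 1 and 1 in TCZ 2) differed likewise, while Rn7sk (128 and 34) and Terc (36 and 17) differed less. Of the markers of other cell types, the 7 macrophage genes summed to between 15.2 and 15.3 CPM in control, 11.98 and 14.3 CPM in TC, and 24.2 and 26.9 CPM in TCZ. The 6 endothelial genes summed to between 12.4 and 12.8 CPM in control, 141 and 148 in TC, mostly Kdr, and 56.4 and 57.3 in TCZ, with Tie1 at 0 in control and TC. The 6 epithelial genes summed to between 16.7 and 19.4, 75.7 and 82.6, and 13.5 and 17.7 CPM in the same order, and the 9 fibroblast genes, none of them at 0, to between 22859 and 24689, 16878 and 17485, and 21812 and 24123 CPM. The fibroblast sum was mostly Col1a1, Col1a2 and Vim. Between control and TCZ, Pdgfra (106 and 16.4 CPM) and Pdgfrb (508 and 278 CPM) fell furthest, and Col3a1 rose most (894 and 1086 CPM). Of the macrophage genes, Cd14 alone had a lower mean in TCZ than in control (1.29 and 2.42 CPM). Itgam differed most (4.74 and 0.480 CPM). The epithelial sum was mostly Krt19, with means of 15.3, 66.5 and 13.2 CPM. Epcam alone of these was highest in TCZ (0.027, 0.285 and 0.588 CPM). Of the endothelial genes, Vwf had the order of Kdr (0.438, 1.64 and 0.784 CPM). Tek (1.46, 0.652 and 3.27 CPM), Cdh5 (1.25, 0.836 and 2.09) and Pecam1 (0.0766, 0.143 and 10.8) were instead highest in TCZ. Endothelial and epithelial sums were thus highest in TC, as Neat1, Malat1 and Pspc1 were. The endothelial sum also stayed above control in TCZ, and so did Malat1. The part of these markers in the results was not tested. In bulk libraries such as these, fewer cells of a type and less RNA per cell cannot be told apart.

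Neat1 (chr19:5824708-5845480, minus strand, on mm10 as in the deposited table) was high in TC alone. It stood at 56.7 and 58.8 CPM in the control libraries, 300.4 and 312.2 CPM in TC, and 63.9 and 64.5 CPM in TCZ. The TC libraries lay 5.11 to 5.50 times above the control libraries, and no library of one group overlapped another group on this scale. The fitted log2 fold change was 2.41 ± 0.07 (standard error, SE, here and below) in TC against control, and -2.25 ± 0.07 in TCZ against TC. In TCZ against control it was 0.15 ± 0.07, with the TCZ libraries 1.09 to 1.14 times the control libraries. That small difference depended on the scaling: with library totals alone it was -0.047, and the deposited RPKM values (reads per kilobase and 1000000 reads) of control, 2.85 and 3.18, overlapped those of TCZ, 2.82 and 3.01. TC, at 14.2 and 14.7 RPKM, stayed clear of both. The summed RNAs without a poly(A) tail were at 324 CPM in TCZ 1, mostly Rn7s1 and Rn7s2, and at 3.10 CPM in TCZ 2. The part of this difference in the Neat1 values was not tested.

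Malat1 (chr19:5795690-5802671, minus strand) followed the order control, TCZ, TC. Its levels were 793.5 and 758.6 CPM in control, 1412.6 and 1321.5 CPM in TC, and 1080.8 and 1077.2 CPM in TCZ. No library of a group overlapped another group. The log2 fold change was 0.82 ± 0.07 in TC against control, 0.48 ± 0.07 in TCZ against control and -0.34 ± 0.07 in TCZ against TC. TCZ against control was 0.28 with library totals. For Malat1 too, the part of the difference between libraries in RNAs without a poly(A) tail was not tested.

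**Figure D1:**
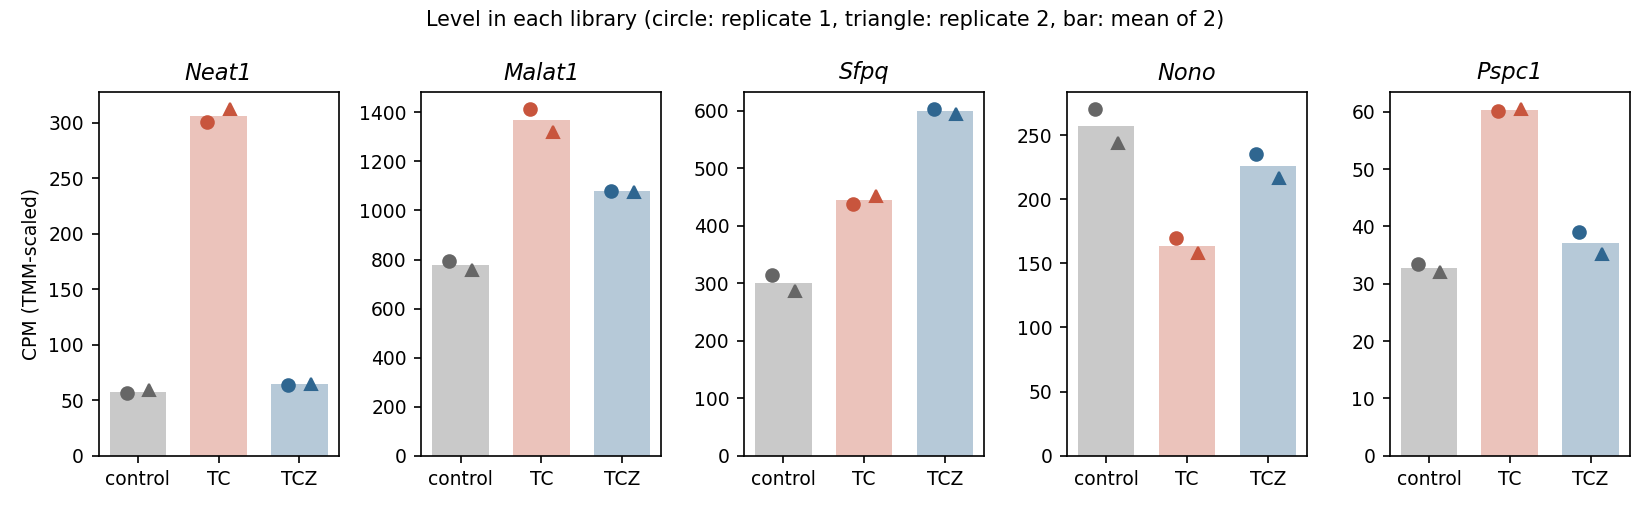
TMM-scaled CPM (y axis, linear, from 0) of Neat1, Malat1, Sfpq, Nono and Pspc1 in each of the 6 libraries; circles are replicate 1, triangles replicate 2 and bars the mean of the 2 libraries of control, TC and TCZ. Neat1 and Pspc1 stand high in TC, Sfpq is higher in TC than in control and higher still in TCZ, and Nono is low in TC.

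Among the DBHS genes, Sfpq (splicing factor proline and glutamine rich; chr4:127020560-127051101, plus strand) was higher in both treatments. It stood at 314 and 287 CPM in control, 438 and 452 CPM in TC, and 602 and 595 CPM in TCZ, with no overlap between groups. The log2 fold changes were 0.57 ± 0.07 in TC against control, 0.99 ± 0.07 in TCZ against control and 0.43 ± 0.07 in TCZ against TC. Of the 5 genes it was the one with its top level in TCZ.

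Nono (non-POU domain octamer binding, the usual partner of Sfpq; chrX:101429651-101448593, plus strand) was the one gene of the 5 that was lower after treatment. Its levels were 270 and 244 CPM in control, 170 and 158 CPM in TC, and 235 and 217 CPM in TCZ. The groups did not overlap, although control 2, at 244 CPM, lay close to TCZ 1, at 235 CPM. The log2 fold change was -0.65 ± 0.08 in TC against control, -0.19 ± 0.08 in TCZ against control and 0.46 ± 0.08 in TCZ against TC.

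Pspc1 (paraspeckle component 1; chr14:56722441-56778316, minus strand) was high in TC and close to control in TCZ. It stood at 33.4 and 32.0 CPM in control, 60.1 and 60.4 CPM in TC, and 38.9 and 35.1 CPM in TCZ. Its log2 fold change was 0.88 ± 0.08 in TC against control, 0.18 ± 0.08 in TCZ against control and -0.70 ± 0.08 in TCZ against TC. With library totals, TCZ against control was -0.016, and the deposited RPKM values of control, 14.6 and 15.1, overlapped those of TCZ, 15.0 and 14.3. Without TCZ 2 it was 0.26, and without TCZ 1 it was 0.092. The smallest count of any of the 5 genes in a library was Pspc1's 850 in TCZ 2, with an exact Poisson 95% interval of 794 to 909 that covers counting error only.

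All 5 genes were non-overlapping in every comparison on the TMM scale. In TC against control 4 were higher and 1 lower, where 79.6% of all tested genes did not overlap, 40.7% higher and 38.8% lower. In TCZ against control 4 were again higher and 1 lower, beside 77.9% of all tested genes, 40.7% higher and 37.2% lower. In TCZ against TC 2 were higher and 3 lower, beside 78.5%, 40.1% higher and 38.4% lower. Leaving out both control 2 and TCZ 2 gave log2 fold changes of 2.43 and 0.17 for Neat1, 0.78 and 0.44 for Malat1, 0.50 and 0.94 for Sfpq, -0.73 and -0.20 for Nono, and 0.85 and 0.22 for Pspc1, in TC and TCZ against control. TC and TCZ share the control libraries, so these columns of values are not independent. Ordered by size over all tested genes, Neat1's difference in TC against control was the 1878th from the top of 18563, and Malat1's the 4770th.

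**Figure D2:**
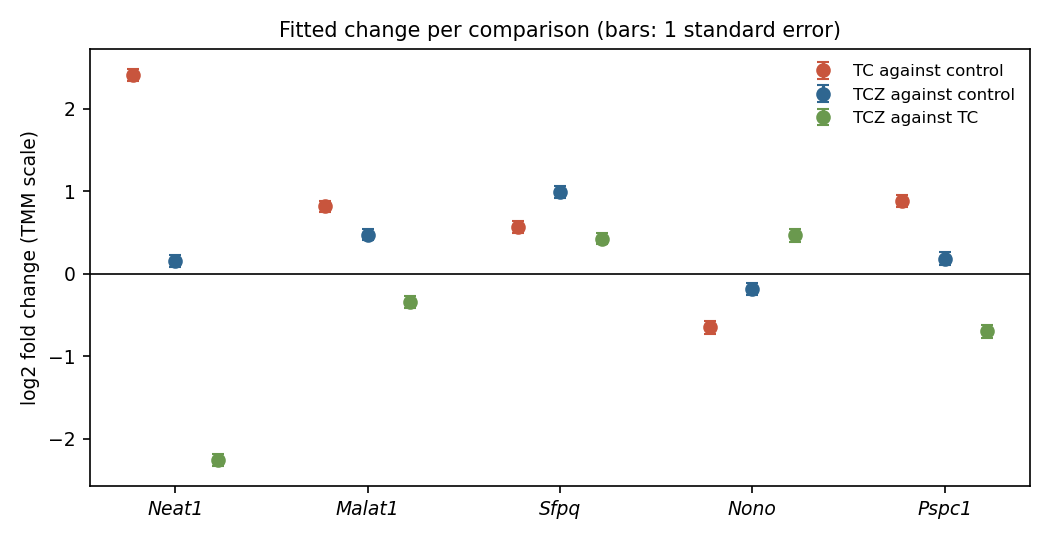
Fitted log2 fold change (y axis, TMM scale) of each of the 5 genes in each comparison (TC or TCZ against control, and TCZ against TC); points are edgeR estimates and bars 1 standard error. Neat1 spans from 2.41 to -2.25, while the other 4 genes stay between -0.70 and 0.99.

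Levels of different genes can be set side by side only per length. In control the RPKM means were 120 ± 2.5 for Malat1 (SD, n = 2, here and below), 113 ± 2.2 for Nono, 25.6 ± 0.30 for Sfpq, 14.9 ± 0.34 for Pspc1 and 3.02 ± 0.23 for Neat1. In TC they were 192 ± 9.3 for Malat1, 64.9 ± 3.4 for Nono, 34.3 ± 0.72 for Sfpq, 24.8 ± 0.039 for Pspc1 and 14.4 ± 0.37 for Neat1. In TCZ they were 146 ± 5.5, 86.2 ± 1.5, 44.4 ± 1.4, 14.7 ± 0.48 and 2.92 ± 0.13 in the same order. The order of the 5 genes was thus the same in the 3 groups, and Malat1 and Nono came nearest to each other in control, where the lower Malat1 library held 119 RPKM and the higher Nono library 114. Among the table's long noncoding RNA rows, Malat1 was 2nd by mean RPKM in each group, and Neat1 was 87th in control, 33rd in TC and 130th in TCZ. Neat1's RPKM is divided by 20773 bases, the whole span of the gene in the deposited table, and Sfpq's by 12714 bases of joined exons, so reads from shorter forms of either gene give a low RPKM.

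Ratios between the genes within a library do not depend on how libraries are scaled. They can still depend on the poly(A) selection of each RNA and on the mix of Neat1 forms, and neither part was tested. Malat1 was 41.6 and 38.4 times Neat1 in RPKM in control, 13.99 and 12.6 times in TC, and 50.3 and 49.7 times in TCZ. The gap between these RNAs was therefore narrow in TC and, with no overlap, wider in TCZ than in control. The 3 DBHS genes summed to 155 and 151 RPKM in control, against 126 and 122 in TC and 146 and 145 in TCZ.

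That DBHS sum differed in makeup between groups. Shares of the sum depend on the deposited lengths, 12714 bases for Sfpq and 2468 for Nono. In CPM, not divided by length, Sfpq was above Nono already in control (means of 300 and 257). Nono held 73.9% and 73.3% of the summed RPKM in control, against 53.5% and 51.2% in TC and 59.9% and 58.8% in TCZ. Sfpq held 16.7% and 16.7%, then 26.8% and 28.5%, then 29.8% and 31.3%. Sfpq's share was thus higher in both treatments, without overlap between TC and TCZ. Pspc1 held 9.46% and 9.97% in control, against 19.7% and 20.3% in TC and 10.3% and 9.88% in TCZ, so its TCZ and control shares overlapped while TC was clear of both. The ratio of Sfpq to Nono in RPKM was 0.226 and 0.228 in control, against 0.501 and 0.557 in TC and 0.498 and 0.533 in TCZ. TC and TCZ overlapped in this ratio, and both lay above control.

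**Figure D3:**
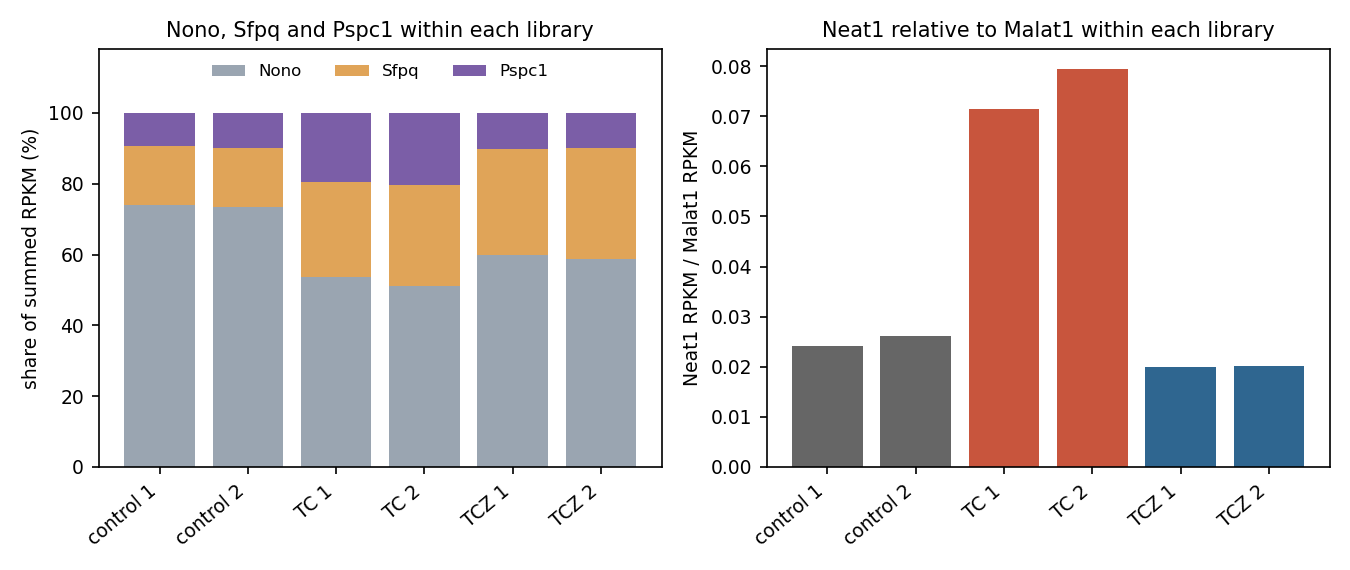
Left, the share (%) of Nono, Sfpq and Pspc1 in their summed RPKM in each of the 6 libraries; right, Neat1 RPKM divided by Malat1 RPKM in each library. Nono holds 73.9% and 73.3% in control and 53.5% and 51.2% in TC, and the right panel is high in the TC libraries.

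Rows that share sequence or position with the 5 genes held few reads. Zmym1, on the other strand over Sfpq, counted at most 1.88% of Sfpq's reads in any library, and a same-strand row inside Pspc1 at most 1.36% of Pspc1's. The Nono pseudogenes Gm5171 and Gm8806 counted at most 0.122% and 0.354% of Nono's reads, and both antisense rows over Malat1 counted 0. The sources used here do not say whether the counting used strand, so antisense reads within these genes cannot be told apart.

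RNAs of the other known paraspeckle proteins moved in both directions, on the TMM scale in shares near those over all tested genes. Of 31, all of them tested, 12 rose and 8 fell in TC against control (edgeR's quasi-likelihood test, adjusted p below 0.05 over all genes), where 60.7% of all tested genes passed, 31.6% higher and 29.2% lower. In TCZ against control 10 rose and 9 fell, beside 60.1% of all genes, 31.5% higher and 28.6% lower. In TCZ against TC 8 rose and 9 fell, beside 56.1% of all genes, 28.2% higher and 27.9% lower. As shares of the list, 38.7% rose and 25.8% fell in TC. In TCZ the shares were 32.3% and 29.0% against control, and 25.8% and 29.0% against TC. The median log2 fold changes of the list were 0.01, 0.05 and 0.01, beside 0.02, 0.05 and 0.02 over all genes tested. Falls were more numerous under library totals, where 9 rose and 16 fell in TC and 8 rose and 15 fell in TCZ against control. Without control 2 and TCZ 2, on the TMM scale, the list's median in TC was -0.03. With library totals the split over all genes in TC against control was 5079 higher and 6586 lower, against 5857 and 5412 on the TMM scale. In TCZ against control that split was 4556 higher and 7019 lower, against 5851 and 5313 on the TMM scale.

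Among paraspeckle proteins that rose, Cirbp, the cold-inducible RNA-binding protein, was at 6.48 ± 0.72 CPM in control, 17.6 ± 1.7 in TC and 30.9 ± 0.83 in TCZ (edgeR adjusted p = 1.9e-10 and 8.5e-14 against control). Ewsr1, a FET-family RNA-binding protein, was at 152 ± 5.6, 312 ± 11 and 311 ± 16 CPM, with a log2 fold change of -0.0065 between TC and TCZ that did not pass (adjusted p = 0.95). Cirbp thus had the order of levels of Sfpq, and Ewsr1 was nearly level between the treatments.

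Among those that fell, Rbm14, which is known to be needed for paraspeckles to form, was at 47.2 ± 1.9 CPM in control, 15.7 ± 0.79 in TC and 28.8 ± 1.6 in TCZ. Its log2 fold change was -1.59 ± 0.08 in TC and -0.71 ± 0.08 in TCZ against control (edgeR adjusted p = 3.6e-13 and 1.6e-07). Smarcc1, a subunit of the SWI/SNF chromatin remodelling complex, fell from 164 ± 3.1 CPM to 73.7 ± 0.12 in TC and 94.9 ± 3.2 in TCZ. Rbm12, an RNA-binding protein, fell from 41.3 ± 1.4 to 25.8 ± 0.062 and 14.3 ± 0.47 CPM. Ahdc1, an AT-hook protein, was at 44.4 ± 0.94 CPM in control and 40.1 ± 0.026 in TC, a difference that did not pass (adjusted p = 0.10), and at 12.5 ± 0.36 in TCZ, where it fell (-1.82 ± 0.08, adjusted p = 3.0e-14). The list thus held genes whose RNA was low in TC, such as Rbm14, and others low in TCZ, such as Ahdc1.

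Cleavage factor I and Hnrnpk are known to set which form of Neat1 is made, and these genes are named for that role after their values were seen. Cleavage factor I, made of Nudt21 with Cpsf6 or Cpsf7, favours the short form, and Hnrnpk holds it back. Hnrnpk was at 547 ± 36 CPM in control, 874 ± 12 in TC and 779 ± 29 in TCZ, and rose in both (0.67 ± 0.07 and 0.51 ± 0.07, edgeR adjusted p = 3.3e-08 and 2.2e-06). Cpsf6 fell in TC (88.4 ± 7.9 to 63.8 ± 3.7 CPM, adjusted p = 1.8e-05), while its 93.2 ± 1.9 CPM in TCZ did not pass against control (adjusted p = 0.43). Cpsf7 rose in TC (49.2 ± 0.66 to 81.9 ± 1.1 CPM, adjusted p = 7.7e-09), and its 51.0 ± 0.68 CPM in TCZ did not pass against control (adjusted p = 0.55). The exchangeable subunits Cpsf6 and Cpsf7 thus changed in opposite directions in TC. Nudt21 did not pass in either (38.0 ± 4.0, 34.9 ± 0.74 and 39.3 ± 4.9 CPM, adjusted p = 0.22 and 0.66).

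RNAs of nuclear speckle proteins, of the body where Malat1 gathers, were mostly higher in TC. Of 27 tested, 20 rose and 2 fell in TC against control, 16 rose and 8 fell in TCZ against control, and 1 rose and 22 fell in TCZ against TC. Over all tested genes 31.6% rose and 29.2% fell in TC, 31.5% and 28.6% in TCZ against control, and 28.2% and 27.9% from TC to TCZ. The median log2 fold changes were 0.54, 0.22 and -0.41. The rises in TCZ against control rested on the scaling and on single libraries, with 8 rises and 10 falls under library totals, 10 rises with no low-count filter and 9 rises either without control 2 or without TCZ 1. On the TMM scale Malat1's order of levels, control below TCZ below TC, was also that of the list's medians. With library totals the list's median in TCZ against control was 0.018, where Malat1's change was 0.28.

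Son, a large scaffold of the speckle, was at 436 ± 25 CPM in control, 747 ± 28 in TC and 589 ± 4.6 in TCZ. It rose in TC and TCZ and fell from TC to TCZ (0.77 ± 0.07, 0.43 ± 0.07 and -0.34 ± 0.07, edgeR adjusted p = 3.3e-09, 1.7e-05 and 0.00031). The splicing factors Srsf7 (65.2 ± 5.5, 123 ± 1.4 and 92.1 ± 8.1 CPM) and Rbm25 (141 ± 11, 253 ± 5.4 and 219 ± 3.0 CPM) rose in both treatments, as did Srsf5 (100.2 ± 6.1, 171 ± 0.53 and 153 ± 4.6 CPM). Srek1, another SR-type protein, rose in TC and fell in TCZ (83.0 ± 2.2, 113 ± 5.6 and 54.9 ± 5.5 CPM). Pnisr, with 42.5 ± 1.2, 54.0 ± 2.7 and 63.8 ± 0.53 CPM, was the 1 gene that rose from TC to TCZ, and that call was lost with no low-count filter, without TC 2 and without TCZ 1.

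Falls among speckle proteins were fewer in TC. Pnn, which belongs to splicing-dependent complexes, fell in both treatments (84.1 ± 3.3, 56.7 ± 0.95 and 57.9 ± 2.4 CPM). U2af1, the small subunit that reads the 3′ splice site, fell in both as well (55.7 ± 3.4, 45.2 ± 2.2 and 35.7 ± 2.0 CPM), but its call in TC was lost without control 1 or without TC 2. Srsf4 was at 15.2 ± 0.21 CPM in control and 14.8 ± 0.94 in TC, which did not pass (edgeR adjusted p = 0.76), and fell to 8.23 ± 1.1 in TCZ (adjusted p = 1.4e-06).

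**Figure D4:**
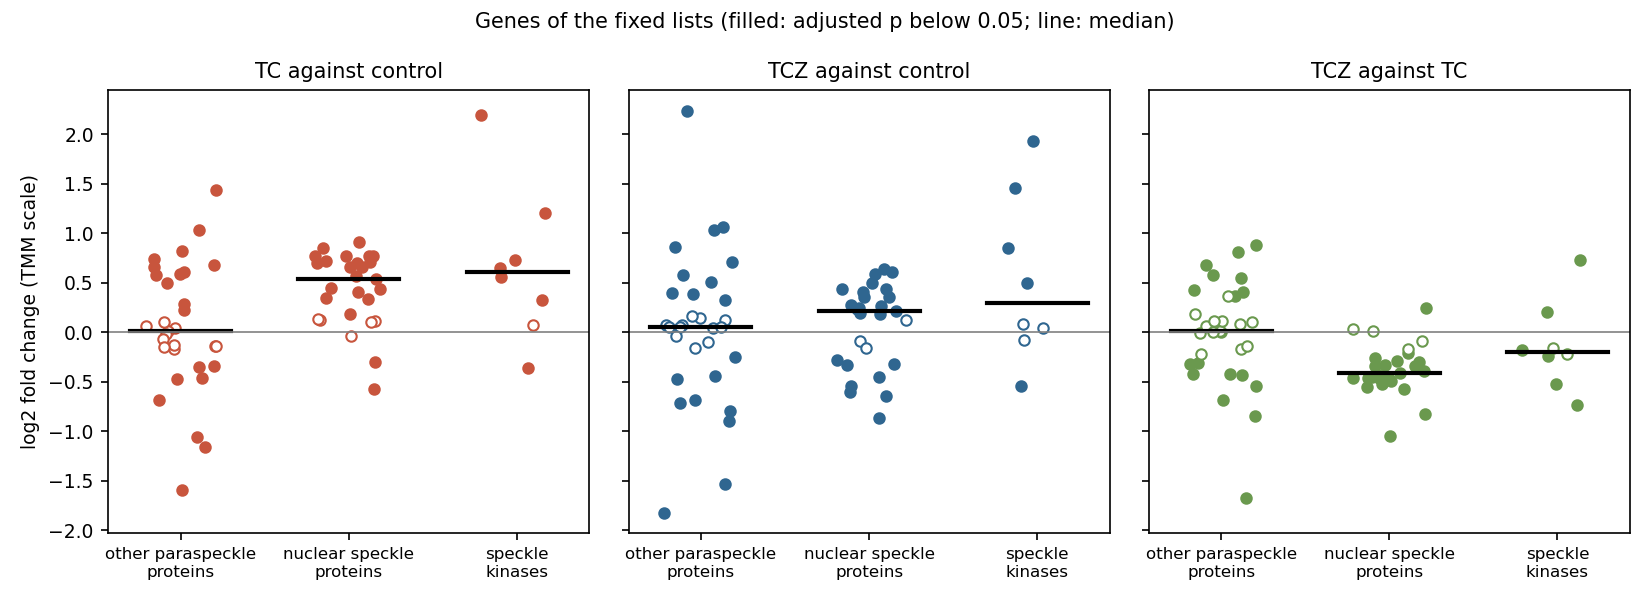
Log2 fold change (y axis, TMM scale) of each gene of 3 lists, the 31 other paraspeckle proteins, the 27 nuclear speckle proteins and the 8 speckle kinases, in the 3 comparisons; filled points passed edgeR's test at adjusted p below 0.05, open points did not, black lines are medians, and sideways spread is for legibility. Paraspeckle proteins scatter on both sides of 0, and speckle proteins sit mostly above 0 in TC against control and below 0 in TCZ against TC.

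The kinases that phosphorylate SR proteins and release them from speckles were led by the Clk family. Of 8 tested, 6 rose and 1 fell in TC against control, 4 rose and 1 fell in TCZ against control, and 2 rose and 4 fell in TCZ against TC, with medians of 0.60, 0.29 and -0.20. Beside these stand 31.6%, 31.5% and 28.2% of all tested genes higher and 29.2%, 28.6% and 27.9% lower. With library totals 3 kinases rose and 3 fell in TCZ against control, with a median of 0.09. Clk4 was at 20.02 ± 1.7 CPM in control, 92.0 ± 3.8 in TC and 55.2 ± 1.6 in TCZ. Clk1 was at 34.3 ± 1.3, 78.8 ± 4.2 and 131 ± 7.5 CPM, so these close relatives had their top levels in different treatments (TCZ against TC -0.74 ± 0.08 for Clk4 and 0.73 ± 0.07 for Clk1, edgeR adjusted p = 3.8e-08 and 3.1e-08). Srpk1, a cytoplasmic and nuclear SR kinase, fell in both (63.2 ± 0.30, 49.1 ± 2.0 and 43.2 ± 1.9 CPM). Dyrk1a rose in TC (70.9 ± 2.8 to 105 ± 1.7 CPM) and did not pass in TCZ (72.8 ± 2.1 CPM, adjusted p = 0.67). Both Clk1 and Clk4 carry known transcripts with retained introns, which gene counts add to the spliced ones.

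The enzymes that cut the 3′ ends of the long Neat1 form and of Malat1 are RNase P, the tRNA-processing complex, and partners that act on the small RNA it releases. Of 12 tested, 4 rose and 6 fell in TC, 2 rose and 6 fell in TCZ against control, and 3 rose and 4 fell in TCZ against TC, with medians of -0.21, -0.20 and -0.22. Of all tested genes, 31.6% rose and 29.2% fell in TC and 31.5% rose and 28.6% fell in TCZ against control. From TC to TCZ 28.2% of all tested genes rose and 27.9% fell. Under library totals 0 of the 12 rose and 6 fell in TCZ, with a median of -0.40. The RNase P subunits Pop1 (35.6 ± 1.5, 24.0 ± 0.25 and 18.4 ± 0.61 CPM) and Pop4 (42.4 ± 4.1, 27.8 ± 0.85 and 24.3 ± 0.73 CPM) fell in both treatments. Elac2, the enzyme of tRNA 3′ ends, rose in TC (27.2 ± 0.48 to 37.3 ± 0.75 CPM, edgeR adjusted p = 7.5e-05). Its call in TCZ (31.6 ± 3.5 CPM, adjusted p = 0.028) was lost with library totals, with no low-count filter and without control 1, control 2, TC 1 or TCZ 1. Rpp30, another RNase P subunit, rose in TC (14.1 ± 1.7 to 17.7 ± 1.5 CPM, adjusted p = 0.012), a call lost with library totals, with a batch term for control 2 and TCZ 2, without control 2, without TC 1 and without control 2 and TCZ 2 together. From TC to TCZ, Trnt1, which adds CCA to tRNA ends, rose (27.3 ± 2.4 to 36.3 ± 3.8 CPM) and the RNase P subunit Rpp14 fell (22.7 ± 0.57 to 17.3 ± 2.4 CPM), the latter call being lost without TCZ 2.

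Of 5 transcription factors known to act on Neat1, 2 rose and 1 fell in TC, 2 rose and 0 fell in TCZ against control, and 1 rose and 1 fell in TCZ against TC; their medians were 0.15, 0.16 and 0.04. The share over all tested genes was 31.6% higher and 29.2% lower in TC, and 31.5% and 28.6% in TCZ against control. For TCZ against TC it was 28.2% higher and 27.9% lower. Scaling by library totals left 0 higher and 1 lower in TCZ against control and turned the median to -0.03. Trp53, which encodes p53, rose in TC (72.0 ± 4.4 to 99.6 ± 3.4 CPM, edgeR adjusted p = 3.1e-05) and in TCZ (89.6 ± 9.8 CPM, adjusted p = 0.0019), the second call being lost with library totals, without control 2 and without TCZ 1. Hsf1, the heat shock factor, rose in TC (30.8 ± 2.1 to 40.8 ± 0.63 CPM) and fell from there to TCZ (32.5 ± 0.35 CPM). Epas1, the hypoxia factor HIF-2α, was opposite to Neat1, with 15.9 ± 2.3 CPM in control, 9.83 ± 0.019 in TC and 18.1 ± 1.7 in TCZ. Atf2, a bZIP factor, passed in TCZ against control alone (52.5 ± 6.4 to 60.6 ± 0.25 CPM, adjusted p = 0.040), and that call was lost in 8 of 16 alternatives, among them library totals and leaving out control 2, TC 1, TC 2, TCZ 1 or TCZ 2.

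Other long noncoding RNAs were counted for comparison. Of 16 on the list 15 were in the table and tested; 5 rose and 5 fell in TC, 6 rose and 7 fell in TCZ against control, and 3 rose and 7 fell in TCZ against TC, with medians of 0.05, -0.12 and -0.14. The TC counts are near the shares over all tested genes, 31.6% higher and 29.2% lower, beside 31.5% and 28.6% in TCZ against control. In TCZ against TC the shares over all tested genes were 28.2% higher and 27.9% lower. With library totals 3 rose and 8 fell in TCZ against control, with a median of -0.32. Snhg1, a host of small nucleolar RNAs, rose from 19.8 ± 1.2 CPM to 106 ± 4.4 in TC and 71.2 ± 0.71 in TCZ. Xist, the RNA that coats the inactive X chromosome, rose from 41.3 ± 0.17 to 70.0 ± 1.6 and 52.1 ± 4.4 CPM, the order of Malat1; its call in TCZ was lost with library totals. Rian, of the imprinted Dlk1-Meg3 region, was low in TC (452 ± 27, 175 ± 6.6 and 386 ± 16 CPM), and H19, another imprinted RNA, was low there too (232 ± 10, 164 ± 3.1 and 272 ± 18 CPM). Tug1 was, like Sfpq, lowest in control and highest in TCZ (105 ± 7.3, 143 ± 0.25 and 170 ± 11 CPM). Kcnq1ot1 fell in both treatments (23.2 ± 1.2, 18.1 ± 2.9 and 9.62 ± 2.2 CPM), but its call in TC was lost in 6 of 16 alternatives, among them DESeq2, the batch term and leaving out control 1, control 2 or TC 2.

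Neat1 and Malat1 lie on one stretch of chromosome 19, and the genes around them were counted in the same way. Within 200 kb of the stretch the table held 30 other rows, of which 24 were tested. In TC against control 5 of these rose and 12 fell (median log2 fold change -0.52), in TCZ against control 2 rose and 11 fell (-0.46), and in TCZ against TC 8 rose and 10 fell (-0.15). Over all tested genes 31.6% rose and 29.2% fell in TC, 31.5% and 28.6% in TCZ against control, and 28.2% and 27.9% from TC to TCZ. Frmd8os, an antisense RNA that starts 0.177 kb from Neat1, was barely detected, at 0.068 CPM in control, 0.29 in TC and 0.97 in TCZ. It passed the low-count filter through its reads in the treatments, so its rises are no independent result. Both are in the counts above, and the call in TC was lost in 11 of 15 alternatives. Frmd8, the next gene on that side, fell in both treatments (83.9 ± 3.6, 59.2 ± 3.3 and 50.7 ± 1.4 CPM, edgeR adjusted p = 3.8e-06 and 2.6e-08). Frmd8 was thus lower in TC, where Neat1 was higher.

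Farther out on Malat1's side, Ltbp3 (113 ± 3.1, 87.2 ± 4.3 and 110 ± 6.8 CPM) and Fam89b (42.4 ± 5.0, 23.9 ± 1.4 and 38.8 ± 1.7 CPM) fell in TC. Ehbp1l1 fell in both treatments, from 204 ± 4.7 CPM to 69.7 ± 6.4 in TC and 17.7 ± 1.7 in TCZ, and Pcnx3 likewise (75.2 ± 6.1, 51.9 ± 0.15 and 27.4 ± 0.36 CPM). Kcnk7, a potassium channel, had 0 counts in control, 0.255 CPM in TC and 0.041 CPM in TCZ. It passed the low-count filter through TC, so its rise there, counted above, is no independent result. That call was lost without control 1. On Neat1's side, Cdc42ep2, an effector of the GTPase Cdc42, fell from 11.6 ± 0.011 CPM to 1.44 ± 0.024 and 0.671 ± 0.013, and Slc25a45, a mitochondrial carrier, fell in TC (2.09 ± 0.80 to 0.489 ± 0.066 CPM). Dpf2, a chromatin protein, rose in TC and fell in TCZ (45.7 ± 4.1, 60.9 ± 2.0 and 30.7 ± 5.9 CPM). Rela, the p65 subunit of NF-kB, was named after its values were seen: its start site is 208 kb from Neat1's, and it rose in both treatments (72.3 ± 3.7, 258 ± 12 and 217 ± 25 CPM, adjusted p = 2.6e-14 and 2.8e-13).

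**Figure D5:**
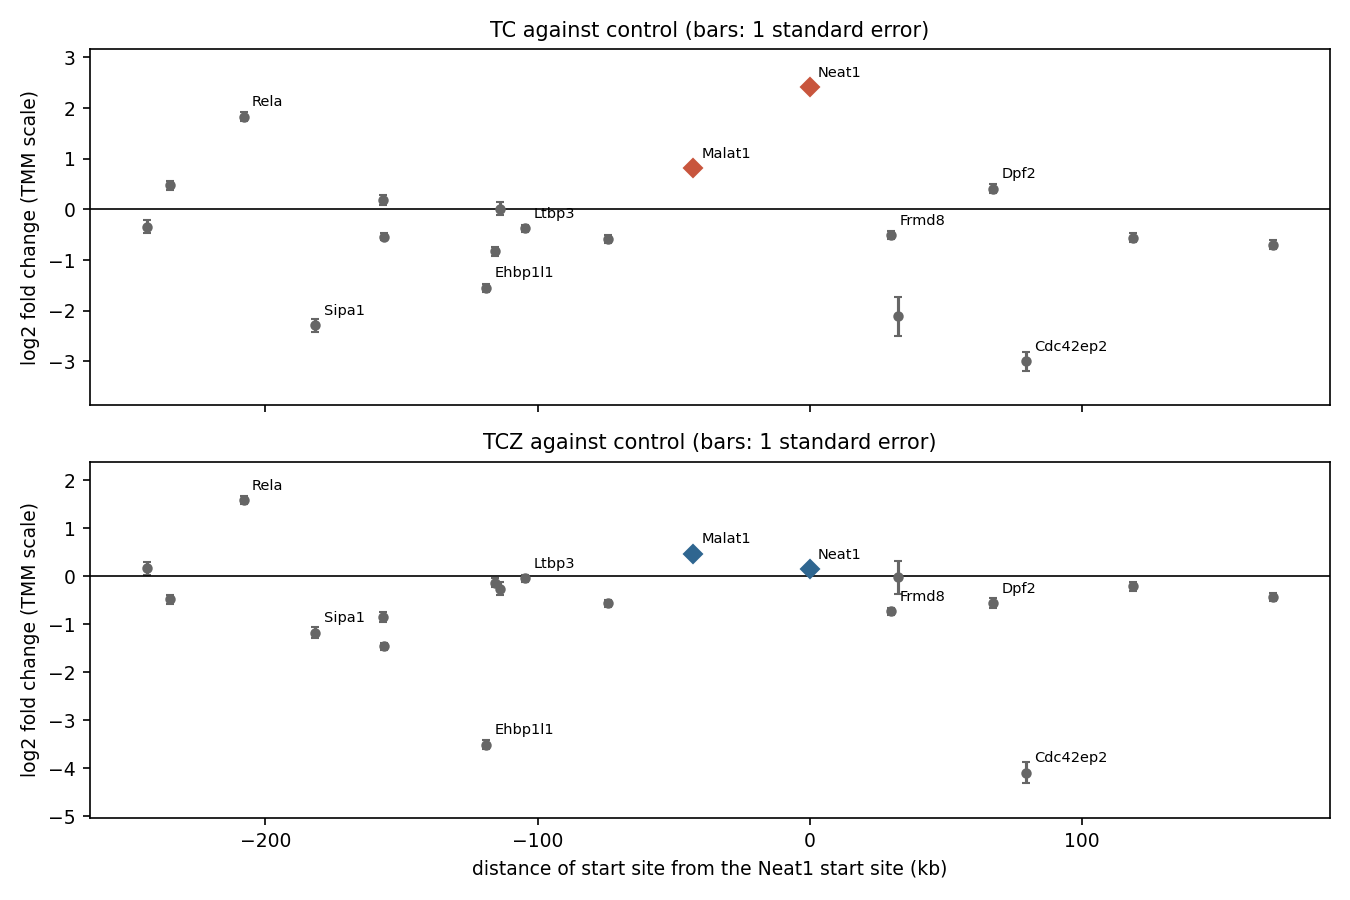
Log2 fold change (y axis, TMM scale, bars 1 standard error) against the distance in kb of each gene's start site from the Neat1 start site, for TC against control (top) and TCZ against control (bottom); diamonds are Neat1 and Malat1, and circles the 17 other tested rows with a mean of at least 1 CPM. Neat1 and Malat1 stand above 0 between neighbours that are mostly below it, with Rela as a high point at the left.

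Likeness of pattern was measured as the root mean square difference of log2 CPM over the 6 libraries, each gene centred on its own mean, among 8578 genes whose mean reached 10 CPM. The nearest to Neat1 were Ddx58, which encodes the RNA sensor RIG-I (0.050; 27.1, 139 and 29.3 CPM in control, TC and TCZ), Bdkrb2, a bradykinin receptor (0.081; 9.74, 58.1 and 12.002 CPM), and Rnf213, a large ubiquitin ligase (0.087; 125, 602 and 139 CPM). Nearest to Malat1 were Braf (0.018), the speckle scaffold Son (0.025) and Naa15 (0.031). Nearest to Sfpq were Ppp1r18 (0.026) and Amotl2 (0.034). Nono had Mrpl42 (0.028), R3hdm4 (0.030) and Sar1a (0.031), and Pspc1 had Otud5 (0.029), Dbndd2 (0.034) and Zmym6 (0.040). These are descriptions over 6 libraries in 3 groups. By Pearson correlation, which ignores the size of the swing, the nearest to Neat1 were Cpsf7, 1810026J23Rik and Fgd3 instead; of the 15 places in all, Otud5 alone was named for the same gene by both measures.

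Promoters of 4 of the 5 genes, Malat1, Sfpq, Nono and Pspc1, matched the RefSeq promoter table (GRCm38.p6, 250 bases before to 50 after the start); Neat1 did not. Malat1's is shown because it is the start of the RNA with the most reads of the 5, at chr19:5802623-5802922, minus strand, with the core of the hypoxia response element, ACGTG, in capitals.
Malat1 promoter: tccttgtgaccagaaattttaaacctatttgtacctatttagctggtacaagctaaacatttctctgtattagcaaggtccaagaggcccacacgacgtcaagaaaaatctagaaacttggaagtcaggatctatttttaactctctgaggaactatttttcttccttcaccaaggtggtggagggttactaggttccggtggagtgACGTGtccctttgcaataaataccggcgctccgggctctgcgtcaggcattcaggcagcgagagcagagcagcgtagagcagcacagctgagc
The match begins at -43 from the start, and 19.6% of the table's 32851 promoters hold these letters on either strand. The NF-kB motif, searched as GGGNNNNNCC, matched at -225 and -29 in Sfpq and at 1 in Nono, and 50.8% of all promoters hold it. AP-1 (TGANTCA, 7.81% of promoters), the cyclic AMP element (TGACGTCA, 1.79%), the heat shock element (GAANNTTC, 7.86%) and the TATA box (TATAAA, 13.6%) matched in none of the 4 windows, and Pspc1's window held none of the motifs searched. These matches are letters in a window and not measured binding.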

How the data were processed

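Poly(A) RNA, selected on Dynabeads after Trizol extraction and primed at random, was sequenced on an Illumina HiSeq, per the labels' protocols. The authors deposited one table of raw counts and RPKM per gene and library, per the file headers. The submitters' processing notes name HTSeq, HISAT2 2.1.0, bcl2fastq and the mm10 build; strand setting and annotation version were not given in the sources used here. The 5 genes and all gene lists were chosen with earlier results of these data known. Counts were fitted in R 4.3.3 with edgeR 4.0.16: filterByExpr by group (minimum count 10), TMM, all 6 libraries in one model, glmQLFit and glmQLFTest, and Benjamini-Hochberg adjustment over 18563 genes at 0.05, which left 3 residual degrees of freedom. The procedure was tested on simulated data. The named genes were the 5; from each list and comparison, the 2 highest and 2 lowest changes among called genes whose mean reached 10 CPM; the 3 most alike genes; and called neighbours, at most 5 a side. Some genes this rule gives are not reported here. Genes outside this rule were chosen after their values were seen. Total counts were 24922627 to 52909926 per library. Alternatives were DESeq2 1.42.0, limma-voom (limma 3.58.1), RLE factors, library totals, other low-count filters, 2-group fits, a replicate block, a threshold of 0.01 and left-out libraries; a batch term for control 2 and TCZ 2 was added after the data were seen.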

Additional observations from a re-analysis of the deposited data

How the results depend on the processing

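Library totals shifted the log2 median over all genes by -0.14 in TC and -0.20 in TCZ against control, and by -0.06 between TCZ and TC. Under them, TC against control was 2.26 for Neat1, 0.67 for Malat1, 0.42 for Sfpq, -0.79 for Nono and 0.74 for Pspc1. TCZ against control was 0.28 for Malat1, 0.80 for Sfpq and -0.38 for Nono, and it changed sign for Neat1 (-0.047) and Pspc1 (-0.016). TCZ against TC was -2.31 for Neat1 and 0.37 for Sfpq. Under library totals 16 paraspeckle proteins fell in TC and 15 in TCZ against control, and 8 speckle proteins rose in TCZ against control; this scaling by construction lowers all fold changes of a comparison together. A filter of 50 counts gave 0.21 for Neat1 and 0.53 for Malat1 in TCZ against control, and 0.47 for Sfpq in TCZ against TC. With no filter Sfpq was 0.39 in TCZ against TC, 10 speckle proteins rose in TCZ against control, and 0 rose in TCZ against TC. The batch term gave 0.83 for Pspc1 in TC against control and 0.46 for Sfpq in TCZ against TC. Without control 2 and TCZ 2 together 13 paraspeckle proteins fell in TC. Apart from library totals, the cause of these shifts was not tested.

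Leaving out 1 library at a time, Malat1 ranged from 0.42 to 0.50 in TCZ against control. Speckle proteins that fell in TC numbered 1 without control 1 or TC 2, those that rose in TCZ against control numbered between 9 (without control 2 or TCZ 1) and 16, and those that rose from TC to TCZ numbered 0 without TC 2 or TCZ 1. In no left-out library did any of the 5 genes change direction. Deviations from the group mean, matched by replicate number, correlated at 0.011 (control and TC), 0.12 (control and TCZ) and -0.021 (TC and TCZ). Such values cannot show whether replicate number pairs the samples. With the number as a replicate block, 11240, 11166 and 10434 genes were called against 11269, 11164 and 10413, and Neat1 was 2.41 in TC against control. With 2 libraries a group, small differences such as those of Neat1 and Pspc1 between TCZ and control were at the limit of what these data separate.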
